A study of Mus musculus with 12 samples.

Results

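The Hippo pathway gene set examined here comprised 8 genes, chosen by symbol from the 22609 genes counted in each library: Ctgf, Cyr61, Ankrd1, Amotl2, Lats2, Yap1, Wwtr1 and Tead1. The genes were chosen with values of these same libraries in view, so their levels and differences are described below and were not tested. RNA came from trigeminal ganglion (TG) neurons of Balb/c athymic nude mice, labeled from the tongue with WGA-488, a fluorescent lectin transported backward along axons, and then flow-sorted. The 4 groups of 3 libraries each were MN and FN, from normal males and normal females, and MT and FT, from males and females with a tongue tumor. Tumor groups carried 350000 HSC3 cells (a line of human oral squamous carcinoma) in the tongue, and ganglia were taken on day 15 from mice that had been given the tracer on day 13. A normal library pooled 4 TGs from 2 mice, and a tumor library pooled the 4 TGs of the injected side from 4 mice. The mice were 6 to 8 weeks old, lack T cells because they have no thymus, and hosted a human tumor. The labels give the normal groups no cells, whereas the methods of the study give them human oral keratinocytes, so the tumor comparisons may be against either.

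YAP (gene Yap1) and TAZ (gene Wwtr1) are transcriptional coactivators that carry no DNA-binding domain and act through the TEAD factors, of which Tead1 is a member. In the Hippo cascade, the kinases MST1 and MST2 (genes Stk4 and Stk3) activate the kinases LATS1 and LATS2, which phosphorylate YAP and TAZ and keep them out of the nucleus. In the nucleus, YAP and TAZ raise transcription of the secreted matricellular proteins CTGF (also CCN2) and CYR61 (also CCN1) and of the ankyrin repeat protein ANKRD1, and also of LATS2 and the angiomotin AMOTL2, which both restrain YAP in return. Ctgf and Cyr61 respond to stretch, serum and injury and are transcribed in endothelial cells, mural cells and fibroblasts as well as in glia. Phosphorylation and nuclear entry are not measured by RNA-seq, so the values below are transcript levels only.

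Libraries held 4592891 to 8922011 reads on genes, to which CPM (counts scaled to a common total of such reads) refers. In FN replicate 2, FT replicate 2 and FT replicate 3, 52.6% to 68.4% of all counts were for alignments that were not unique in the genome. This share was 43.0% to 45.5% in the other 9 libraries, so results are given with and without these 3. Such counts, taken over all rows including those that name no gene, are called multimapped reads below. The 16 sensory neuron markers, Tubb3 among them, were present in every library and summed to 19748 to 29569 CPM. RNA of other cells was present as well, with 368 to 1917 CPM over 12 endothelial markers. In sorted bulk samples, fewer cells of a type and less RNA per cell cannot be told apart. Replicates were independent pools per the labels.

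Per length, the targets other than Ankrd1 had higher median levels than the coactivators and Tead1. On the RPKM scale (CPM per kilobase of exon), the median over the 12 libraries was 34.7 for Ctgf and 34.3 for Cyr61, followed by Lats2 at 9.11, Amotl2 at 4.83 and Wwtr1 at 2.74. Yap1, Tead1 and Ankrd1 had medians of 0.794, 0.693 and 0.641 RPKM. Each gene overlapped its neighbour in this order across libraries, except that Wwtr1, at 1.77 to 4.81 RPKM, lay entirely above Yap1, at 0.437 to 1.36 RPKM. Per length, TAZ transcript was thus more abundant than YAP transcript in all 12 libraries. In CPM, Wwtr1 was below Yap1 in MN replicate 1, at 8.44 and 8.58 CPM, and above it in every other library.

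Ctgf, which encodes a secreted matrix protein (mm9 chr10:24315248-24318489, plus strand), had the widest range of the 8 genes in CPM. Its level was 72.4, 38.8 and 100.2 CPM in the MN libraries and 94.8, 114 and 205 CPM in the MT libraries. In females it was 151, 26.7 and 205 CPM in FN and 78.2, 1.31 and 20.1 CPM in FT. The male groups overlapped, with MT replicate 1 below MN replicate 3, and the female groups overlapped through FN replicate 2, one of the libraries with many multimapped reads. All 3 of those libraries lay below the lowest of the other 9. The fitted log2 fold difference was 0.98 ± 0.85 (SE, n = 3 per group) for MT vs MN and -1.92 ± 0.87 for FT vs FN. These SE use a spread common to all 12 libraries, and a fit of the male groups alone gave 0.98 ± 0.32. The tumor groups thus deviated upward in males and downward in females. The difference between these effects, (FT vs FN) minus (MT vs MN), was -2.90 ± 1.21 over 12 libraries and -2.16 ± 0.58 over the 9, where FT is 1 library of 78.2 CPM below both FN libraries of 151 and 205 CPM. Leaving out FT replicate 1 gave -3.40 for FT vs FN, and leaving out FT replicate 2 gave -1.38. The lincRNA Gm15270 overlaps Ctgf on the other strand, and the strand setting of the counting is not given in the sources used here.

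Cyr61, the second secreted CCN protein (chr3:145309935-145312949, minus strand), separated the male groups. It was 34.9, 39.9 and 50.8 CPM in MN and 128, 77.7 and 82.5 CPM in MT, so that every MT library lay above every MN library. FN libraries, at 78.7, 61.5 and 82.5 CPM, also all lay above MN. FT libraries spread from 5.23 CPM in replicate 2 through 53.9 CPM in replicate 1 to 123 CPM in replicate 3, below and above all FN libraries. The log2 fold difference was 1.23 ± 0.65 for MT vs MN (2.34-fold), and 1.22 ± 0.21 in a fit of the male groups alone. It was 0.91 ± 0.64 for FN vs MN and -0.29 ± 0.64 for FT vs FN. The last value turned to 0.24 without FT replicate 2 and was -0.57 over the 9 libraries. The difference between the tumor effects was -1.51 ± 0.91 over 12 libraries, in the direction seen for Ctgf. It was -1.79 over the 9 libraries, where FT is 1 library. Over the 10 libraries without FN replicate 2 and FT replicate 2 it was -0.96 ± 0.51.

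**Figure D1:**
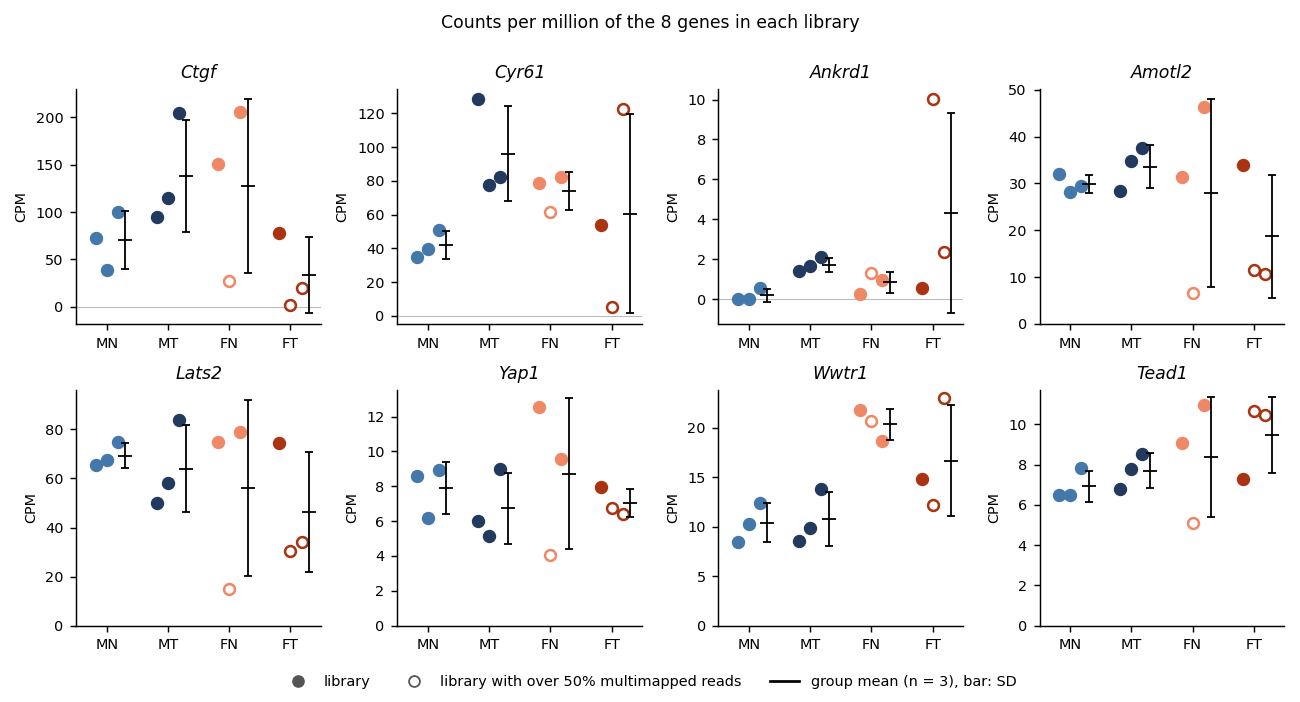
Level of each of the 8 genes in CPM (vertical axes, linear) in the 12 libraries by group (horizontal axes), with the mean and SD of each group of 3 beside its points. Open circles are the 3 libraries with over 50% multimapped reads. Cyr61 and Ankrd1 show all MT points above all MN points, Wwtr1 shows all FN points above all MN points, and Ctgf, Amotl2 and Lats2 show the open circles below all filled ones.

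Ankrd1 encodes a cardiac and muscle ankyrin repeat protein that is among the most used readouts of YAP activity (chr19:36186455-36194334, minus strand). It was near the limit of counting in these neurons. Reads numbered 0, 0 and 5 in MN, 11, 12 and 17 in MT, 2, 10 and 7 in FN and 4, 46 and 17 in FT. All MT libraries, at 1.38, 1.67 and 2.10 CPM, lay above all MN libraries, the highest of which held 0.574 CPM. The fitted MT vs MN value of 3.02 ± 1.25 on the log2 scale rests on the 5 reads of MN replicate 3, without which it was 6.63, and depends on the prior count of the fit. The FT vs FN value of 2.50 was 0.72 without FT replicate 2, which held 10.0 CPM, and -0.11 over the 9 libraries.

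Amotl2, an angiomotin that binds YAP at cell junctions, and Lats2, the kinase that phosphorylates it, are both targets and inhibitors of YAP. Amotl2 (chr9:102619002-102635748, plus strand) was 32.1, 28.2 and 29.5 CPM in MN and 28.4, 34.9 and 37.5 CPM in MT. Lats2 (chr14:58260914-58377225, minus strand, overlapped by Xpo4 and by a small RNA and a pseudogene) was 65.7, 67.4 and 74.9 CPM in MN and 49.9, 58.1 and 84.0 CPM in MT. For both genes the male groups overlapped. In the fit over 12 libraries they differed by less than the SE, at 0.18 ± 0.51 for Amotl2 and -0.11 ± 0.46 for Lats2 (log2 scale). That SE uses a spread common to all 12 libraries. A fit of the male groups alone gave 0.18 ± 0.13 for Amotl2 and -0.11 ± 0.16 for Lats2. In females, Amotl2 was 31.3, 6.52 and 46.3 CPM in FN and 33.9, 11.5 and 10.6 CPM in FT, and Lats2 was 74.9, 14.7 and 78.8 CPM in FN and 74.3, 30.5 and 34.0 CPM in FT. The low values of both genes were those of FN replicate 2, FT replicate 2 and FT replicate 3, as for Ctgf. Over the 9 libraries, the FT vs FN difference of Amotl2 was -0.19 and that of Lats2 -0.04 on the log2 scale. Of all 13835 genes tested, 25.8% had these 3 libraries below the lowest of the other 9, so the 3 members of 8 that did are to be read against that share.

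TEAD factors bind the motif GGAATG, known from muscle genes as its reverse complement CATTCC. Windows of 250 bases upstream of the annotated start were taken from RefSeq for mouse build GRCm38.p6 and matched 6 of the 8 genes, while the promoters of Ctgf and Tead1 were not analysed here. Either form of the motif was found in the windows of 5 of these 6 genes, and in 14.4% of all 27025 genes with a window. The windows of the 3 target genes that hold it are given below, 5′ to 3′ on the strand of the gene, with the motif in capitals, because these are the members whose levels are the usual readout of TEAD activity. Cyr61 (chr3:145649986-145650235, minus strand) holds CATTCC with its first base 103 bases before the start. Ankrd1 (chr19:36119845-36120094, minus strand) holds GGAATG at 210 and at 123 bases before the start, and Amotl2 (chr9:102717554-102717803, plus strand) holds CATTCC at 65 bases.
Cyr61: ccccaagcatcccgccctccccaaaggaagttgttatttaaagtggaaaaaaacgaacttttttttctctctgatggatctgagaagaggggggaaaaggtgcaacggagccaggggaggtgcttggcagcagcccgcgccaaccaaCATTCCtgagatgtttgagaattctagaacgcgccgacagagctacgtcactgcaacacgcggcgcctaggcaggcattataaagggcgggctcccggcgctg
Ankrd1: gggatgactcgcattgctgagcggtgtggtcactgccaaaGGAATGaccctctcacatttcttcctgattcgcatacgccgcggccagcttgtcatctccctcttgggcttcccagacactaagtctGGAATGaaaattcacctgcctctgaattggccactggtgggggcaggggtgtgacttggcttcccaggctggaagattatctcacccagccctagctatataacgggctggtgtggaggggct
Amotl2: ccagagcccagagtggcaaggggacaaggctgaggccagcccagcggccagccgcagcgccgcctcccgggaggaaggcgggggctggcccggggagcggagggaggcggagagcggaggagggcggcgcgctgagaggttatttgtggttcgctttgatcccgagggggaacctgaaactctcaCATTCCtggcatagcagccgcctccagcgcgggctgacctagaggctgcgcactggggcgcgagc
The Yap1 window holds GGAATG 141 bases before the start, and the 2 overlapping windows of Wwtr1 hold the same copy 136 or 170 bases before their starts. Neither of the 2 windows of Lats2 holds the motif, which says only that these letters are not in those bases. A match of letters is not a measured binding site.

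TAZ transcript was higher in normal females than in normal males in every library. Wwtr1 (chr3:57259571-57379832, minus strand, overlapped by the pseudogene Gm16016) was 8.44, 10.3 and 12.4 CPM in MN and 21.7, 20.6 and 18.6 CPM in FN, with no overlap. The log2 fold difference FN vs MN was 1.08 ± 0.36 (2.11-fold), 0.90 over the 9 libraries and 0.92 to 1.21 when any 1 library was left out. Wwtr1 was 8.55, 9.86 and 13.8 CPM in MT and 14.8, 12.2 and 23.0 CPM in FT, and neither tumor group was separated from its normal group. Its tumor differences were 0.06 ± 0.36 in males and -0.23 ± 0.35 in females.

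Yap1, the second coactivator, and Tead1, the DNA-binding partner, were both low in all groups. Yap1 (chr9:7931999-8004596, minus strand, overlapped on the other strand by RP23-349N15.1) ranged from 6.16 to 8.95 CPM in MN, 5.14 to 9.01 in MT, 4.04 to 12.6 in FN and 6.41 to 7.96 in FT. Tead1 (chr7:119822832-120050319, plus strand, overlapped on the other strand by 2310014F06Rik) ranged from 6.47 to 7.80 CPM in MN, 6.79 to 8.52 in MT, 5.09 to 11.0 in FN and 7.27 to 10.7 in FT. All groups overlapped for both genes, and no difference exceeded its SE in any of the 3 group comparisons over 12 libraries. Over the 9 libraries, the Tead1 difference FT vs FN turned from 0.32 to -0.45 on the log2 scale. FN values of Tead1 other than replicate 2 were 9.05 and 11.0 CPM, both above MN.

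**Figure D2:**
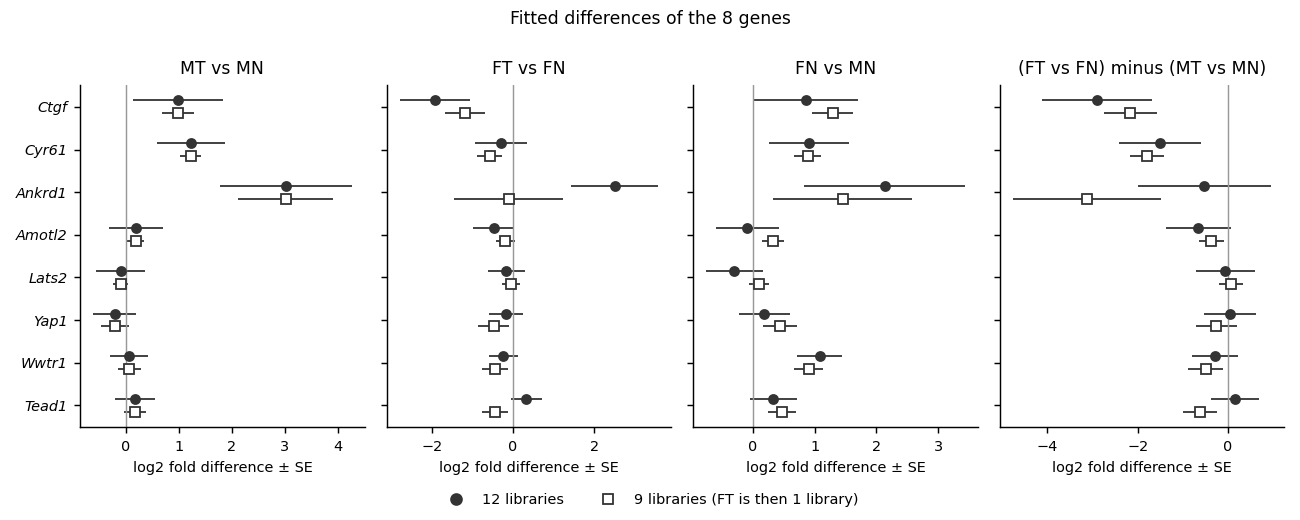
Fitted log2 fold difference of each gene with its SE (horizontal axes) in the 3 group comparisons and in the difference between the tumor effects of the sexes, over 12 libraries (filled) and over the 9 with a low multimapped share (open). Ctgf lies right of 0 for MT vs MN and left of 0 for FT vs FN in both fits, while Ankrd1 and Tead1 cross 0 for FT vs FN between the fits.

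Across the set, the groups did not overlap for 2 of 8 genes in MT vs MN (Cyr61 and Ankrd1, both higher in MT), for 0 of 8 in FT vs FN and for 2 of 8 in FN vs MN (Cyr61 and Wwtr1, both higher in FN). The share of all 13835 genes tested whose groups did not overlap was 13.1% for MT vs MN, 2.49% for FT vs FN and 19.8% for FN vs MN. Over the 9 libraries, 5 genes were above MN in both FN libraries (Ctgf, Cyr61, Wwtr1, Yap1 and Tead1). Among all 13835 genes, 3210 were above in this way, and 37.1% did not overlap in either direction. Also over the 9, 6 genes were lower in the FT library than in both FN libraries (Ctgf, Cyr61, Lats2, Yap1, Wwtr1 and Tead1). Among all genes, 5096 were lower in this way, and 68.9% did not overlap in either direction. These shares are given as background, since the genes were chosen on the same groups. MT vs MN and FN vs MN share the MN libraries, and FT vs FN and FN vs MN share the FN libraries.

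The rest of the pathway was examined through 43 genes that are no members of the set. They were 21 genes of the Hippo cascade, 5 other TEAD partners and 17 further targets, the latter from a published signature of 22 YAP and TAZ targets of which 5 are members. Of these, 40 were counted deeply enough to test, and 0 passed an adjusted p of 0.05 in any comparison (edgeR quasi-likelihood test, Benjamini-Hochberg over 13835 genes). The share of all genes that passed was 0% in MT vs MN and in FT vs FN, 0.0434% (6 genes) in FN vs MN, and 0% for the difference between the tumor effects. The median log2 fold difference of the 40 genes was -0.02 for MT vs MN beside 0.01 for all genes, -0.09 beside -0.06 for FT vs FN, 0.14 beside 0.07 for FN vs MN and -0.05 beside -0.07 for the difference between the effects.

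At an unadjusted p under 0.05, 1 of the 40 genes passed in MT vs MN, 1 in FT vs FN, 0 in FN vs MN and 1 in the difference between the tumor effects, where 0.426%, 3.82%, 5.59% and 1.47% of all genes passed. The gene was Nuak2 in the first and last of these and Map4k4 in FT vs FN. Both are named after their values were seen. With DESeq2, 0 of the 40 passed the adjusted threshold in any comparison, against 0.0145%, 0%, 0.188% and 0% of all genes in the same order, and 1, 3, 1 and 1 passed the unadjusted threshold, against 0.499%, 4.93%, 7.29% and 2.05%. With limma-voom and sample quality weights, 3 passed the adjusted threshold in FN vs MN (Axl, Fat4 and Nuak2, all higher in FN), where 6.1% of all genes did. In the other 3 comparisons 0 passed it, against 0.34% of all genes in MT vs MN and 0% in both others, while 5, 2, 9 and 4 passed the unadjusted threshold in the order above, against 11.3%, 4.08%, 21.2% and 4.77%.

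Nuak2, a kinase of the AMPK family and a YAP target, was counted at a low level and ordered the libraries much as Ctgf did (Spearman rho 0.860 over the 12 libraries, 0.800 over the 9). It was 0.844, 0.785 and 2.52 CPM in MN and 3.77, 3.33 and 4.44 CPM in MT, without overlap. In females it was 3.52, 1.04 and 3.56 CPM in FN and 2.06, 0.218 and 0.976 CPM in FT. The log2 fold difference was 1.48 ± 0.65 for MT vs MN (unadjusted p = 0.0387, adjusted p = 1.00 by edgeR) and -2.67 ± 0.94 for the difference between the tumor effects (unadjusted p = 0.0125, adjusted p = 1.00). Over the 9 libraries these were 1.47 and -2.24, with adjusted p of 0.441 and 0.934 by edgeR. The MT vs MN value was 2.23 without MN replicate 3, and its unadjusted p was 0.128 without MN replicate 1, 0.137 without MN replicate 2 and 0.0578 to 0.0852 without any 1 of the MT libraries (edgeR), so the unadjusted call rests on each of these 5 libraries.

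Map4k4, a kinase that can activate LATS beside MST1 and MST2, was 19.2, 108 and 21.9 CPM in FT and 15.1 to 21.7 CPM in the MN, MT and FN libraries. Its FT vs FN difference of 1.63 ± 0.62 (unadjusted p = 0.0191, adjusted p = 0.994 by edgeR) was 0.07 ± 0.30 without FT replicate 2.

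Of the other targets, Igfbp3, which encodes a binding protein of insulin-like growth factors, followed Ctgf from library to library. It was 94.3, 76.8 and 136 CPM in MN, 97.9, 118 and 160 CPM in MT, 140 and 159 CPM in FN replicates 1 and 3, and 101 CPM in FT replicate 1. In FN replicate 2 and FT replicates 2 and 3 it was 26.4, 13.3 and 36.3 CPM. Nt5e, the ectonucleotidase CD73, was 118 to 173 CPM in the 9 libraries and 15.2 to 17.6 CPM in the 3 with many multimapped reads. Axl, a receptor tyrosine kinase, was 21.7, 24.3 and 27.8 CPM in MN and 58.6 and 45.7 CPM in FN replicates 1 and 3, with 5.61 CPM in FN replicate 2. Nt5e and Axl, and the genes of the next paragraph, were named after their values were seen.

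Upstream, Nf2, which encodes the scaffold merlin that recruits LATS to the membrane, was 64.8 to 107 CPM in the 9 libraries and 23.4 to 41.6 CPM in the 3. The MST2 gene Stk3 was 17.4 to 23.6 CPM and 5.87 to 9.62 CPM in the same order, and the cofactor gene Vgll4, whose product competes with YAP for TEAD, was 15.1 to 28.2 CPM and 40.8 to 99.9 CPM. In all, 12 of the 40 genes had the 3 libraries below the other 9 and 3 had them above, or 30.0% and 7.50%, where 25.8% and 9.19% of all genes did. Sav1, the adaptor of the MST kinases, was the 1 gene of the 40 whose FT libraries (2.06, 2.83 and 2.37 CPM) lay below all FN libraries (3.27, 7.18 and 3.29 CPM). Its adjusted p was 0.994 by edgeR, and it was named after its values were seen. Of all 13835 genes, 175 lay below in this way, and 2.49% did not overlap in either direction. In MT vs MN 1 of the 40 lay above and 6 below, and in FN vs MN 2 above and 1 below. In these comparisons 13.1% and 19.8% of all genes did not overlap.

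**Figure D3:**
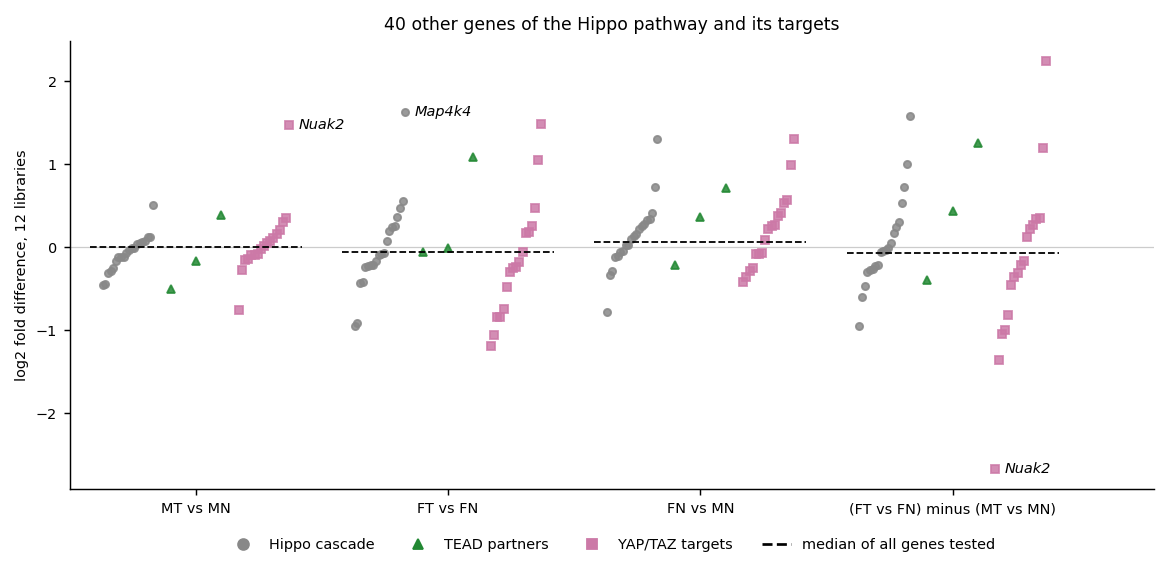
Log2 fold difference over 12 libraries (vertical axis) of the 40 tested genes of the Hippo cascade, the TEAD partners and the YAP/TAZ targets, none of them a member of the set of 8, in each comparison (horizontal axis). The dashed line is the median of all 13835 genes tested, and the points of each list lie on both sides of it, with Nuak2 and Map4k4 labeled where their unadjusted p was under 0.05.

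Ctgf and Cyr61 are also targets of the serum response factor SRF and are induced soon after stimulation along with the immediate early genes, so both groups were counted. Of 11 immediate early genes, 8 had all MT libraries above all MN libraries. Of all genes, 13.1% did not overlap in either direction (803 of 13835 were higher in MT). All 11 had a log2 fold difference above 0 (median 0.51), beside 51.2% of all genes (median 0.01). However, 0 passed an adjusted or an unadjusted p of 0.05 in edgeR or DESeq2. With limma-voom 0 passed the adjusted and 7 the unadjusted threshold, which 11.3% of all genes passed. With the 9 libraries in edgeR, 0 passed the adjusted and 8 of 11 the unadjusted threshold, beside 0.0209% and 7.25% of all genes. Egr1, an early growth response factor, was 186 ± 45.3 CPM (SD, n = 3) in MT and 116 ± 27.9 CPM in MN (log2 fold difference 0.70 ± 0.38, adjusted p = 1.00 by edgeR). Fos was 443 ± 59.7 and 287 ± 64.6 CPM, the mRNA decay factor gene Zfp36 168 ± 30.3 and 106 ± 20.7 CPM, and Srf itself 6.51 ± 0.59 and 4.07 ± 0.82 CPM in MT and MN. Of 10 SRF targets, 9 had a log2 fold difference above 0 in MT vs MN (median 0.42) and 1, Srf, did not overlap between the groups, and 0 passed in edgeR or DESeq2, adjusted or not (limma-voom, 0 adjusted and 3 unadjusted, and edgeR over the 9 libraries, 0 and 2).

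In FN vs MN, 6 of the 11 immediate early genes and 4 of the 10 SRF targets had all FN libraries above all MN libraries, where 19.8% of all genes did not overlap in either direction (1327 of 13835 were higher in FN). Over 12 libraries 0 of either list passed the adjusted test in edgeR or DESeq2. With edgeR 4 and 3 passed the unadjusted threshold, beside 5.59% of all genes, and with limma-voom 7 and 5 passed the adjusted, beside 6.1%. In edgeR over the 9 libraries, 4 of the 11 immediate early genes (Junb, Ier2, Nr4a1 and Zfp36) and 0 of the SRF targets passed the adjusted test, beside 0.44% of all genes, and 8 and 5 passed the unadjusted threshold, beside 15.3%. Junb and Nr4a1 were named after their values were seen. The differences chosen by size among those with no overlap were those of the contractile genes Myl9, at 85.4 ± 11.9 CPM in FN and 29.4 ± 11.5 CPM in MN (adjusted p = 0.81 by edgeR), and Acta2, at 99.5 ± 31.5 and 35.4 ± 16.9 CPM, followed by the immediate early genes Ier3, at 215 ± 113 and 91.2 ± 0.769 CPM, and Ier2, at 118 ± 37.1 and 51.4 ± 8.32 CPM. Acta2 is a marker of smooth muscle and pericytes as well. All 11 immediate early genes had a negative difference between the tumor effects (FT vs FN minus MT vs MN), as Ctgf and Cyr61 had. Their median was -0.60 on the log2 scale beside -0.07 for all genes, of which 7652 of 13835 were negative. The sign was not particular to this list. It was shared by 11 of 12 endothelial markers (median -1.18) and 9 of 10 macrophage markers (-1.25), while the other marker lists had medians above 0. The macrophage markers summed to 8.18, 13.1 and 147 CPM in MT and to 13.8 to 24.5 CPM in MN, so only MT replicate 3 lay above MN. Of the immediate early genes, 0 passed an adjusted or unadjusted p of 0.05 in edgeR, DESeq2 or limma-voom over 12 libraries (1.47%, 2.05% and 4.77% of all genes passed the unadjusted threshold). With the 9 libraries in edgeR, 0 passed the adjusted and 7 of 11 the unadjusted threshold, beside 0% and 5.1% of all genes.

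Markers of endothelial cells were measured in the same libraries. The 12 markers summed to 604 to 1448 CPM in MN, 730 to 1858 in MT, 1661 to 1917 in FN and 368 to 1570 in FT, and none was at 0 in any library. In MT vs MN, 11 of 12 had a log2 fold difference above 0 (median 0.27), beside 51.2% of all genes. Of the 12, 0 were separated between the groups (13.1% of all genes were). In FN vs MN, 12 of 12 were above 0 (median 0.75) and 5 were separated, where 54.1% of all genes were above 0 and 19.8% were separated in either direction. In FT vs FN 11 of 12 were below 0 (median -0.89) and 0 were separated. Of all 13835 genes, 7687 were below 0 there (median -0.06) and 2.49% were separated. In these 3 comparisons 0 passed the adjusted test in edgeR or DESeq2, and 0, 2 and 0 in the order given passed the unadjusted threshold in edgeR, beside 0.426%, 5.59% and 3.82% of all genes. With limma-voom 7 passed the adjusted test in FN vs MN, beside 6.1% of all genes, and 0 in the other 2. In edgeR without the 3 libraries, 0 passed the adjusted and 10 the unadjusted threshold in FN vs MN, beside 0.44% and 15.3% of all genes. Their part in the values of Ctgf and Cyr61 was not tested.

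Expressed per 100 reads of the endothelial markers, Ctgf was 7.30, 6.43 and 6.92 in MN and 13.0, 9.62 and 11.0 in MT, without overlap. In FN it was 7.87 and 10.9 in replicates 1 and 3 and 1.61 in replicate 2, and in FT it was 5.29, 0.355 and 1.28. In FN replicate 2 and FT replicate 3, Ctgf itself was low, at 26.7 and 20.1 CPM, while the sum of the list was 1661 and 1570 CPM. Per read of Pecam1 alone, Ctgf was 0.851, 0.883 and 0.748 in MN and 1.45, 1.01 and 1.35 in MT, so the male groups were again separated. It was 0.928, 1.78 and 1.34 in FN and 0.771, 0.273 and 1.29 in FT, and FN replicate 2 was the highest of the 12. Pecam1 was itself low in the 3 libraries with many multimapped reads, at 4.79 to 15.6 CPM against 43.9 to 163 CPM in the other 9. Of the 12 markers it was also the one ordered most like Ctgf over the 12 libraries. On the scale of the sum the 3 MN libraries, which ranged from 38.8 to 100.2 CPM, lay close to each other. Cyr61 per 100 endothelial reads was 3.52, 6.61 and 3.51 in MN and 17.6, 6.53 and 4.44 in MT, which overlapped, and 4.11, 3.70 and 4.37 in FN. On this scale Cyr61 was not separated between FN and MN or between MT and MN, through MN replicate 2 only. The endothelial markers of that library summed to 604 CPM, the lowest in MN. MN replicates 1 and 3, at 3.52 and 3.51, lay below every FN and every MT value.

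**Figure D4:**
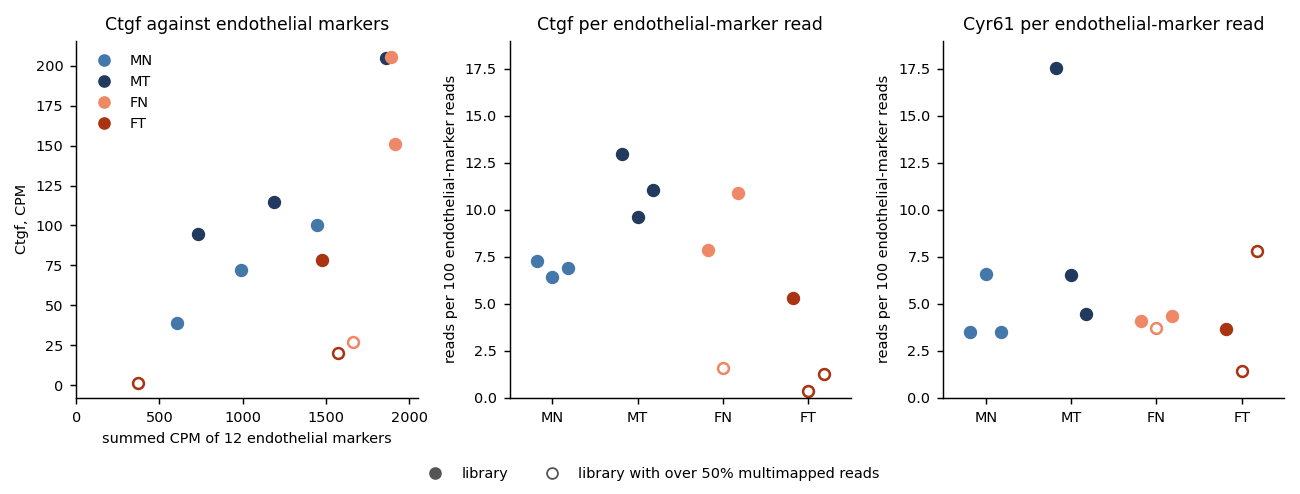
Left, Ctgf in CPM against the summed CPM of 12 endothelial markers in each of the 12 libraries. Middle and right, reads of Ctgf and Cyr61 per 100 reads of these markers by group, where open circles are the 3 libraries with over 50% multimapped reads. The MT points of Ctgf, at 9.62 to 13.0, lie above the MN points, at 6.43 to 7.30, while the Cyr61 points of MT and MN overlap.

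In FN vs MN, where Wwtr1 and Cyr61 were separated, markers of some other cells lay higher in FN as well. All 9 satellite glia markers and all 10 macrophage markers had a log2 fold difference above 0, with medians of 0.63 and 3.03. Of the fibroblast markers 5 of 7 were above 0 (median 0.45), of the pericyte and smooth muscle markers 6 of 10 (0.43), of the neutrophil markers 5 of 6 (1.70), of the myelinating Schwann cell markers 3 of 7 (-0.01) and of the sensory neuron markers 7 of 16 (-0.13), beside 54.1% of all genes. The satellite glia markers summed to 4228 to 5036 CPM in MN and 8279 to 16518 CPM in FN, the macrophage markers to 13.8 to 24.5 CPM and 103.6 to 252 CPM, and the fibroblast markers to 82.4 to 143 CPM and 167 to 412 CPM. The highest FN sums of satellite glia and fibroblast markers were those of FN replicate 2. FN replicates 1 and 3 held 8375 and 8279 CPM of the former and 167 and 224 CPM of the latter. In edgeR over 12 libraries 0 markers of these lists passed the adjusted test in FN vs MN. With DESeq2, 3 macrophage markers and 0 of the other lists passed it, beside 0.188% of all genes. With limma-voom 9 macrophage, 6 satellite glia, 3 pericyte and smooth muscle, 3 sensory neuron, 2 fibroblast, 1 neutrophil and 0 Schwann cell markers passed it, beside 6.1%. The part of these cells in the Wwtr1 difference was not tested.

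Across libraries, the genes whose CPM was ordered most like that of Ctgf were Rnf144b, Anln and Zfp740 (Spearman rho 0.979 each, n = 12), Igfbp3 (0.972) and Bcl2l1 (0.965, tied with other two genes). Over the 9 libraries these were 0.967, 0.950, 0.950, 0.950 and 0.933. The 12 endothelial markers had rho from 0.203 (Emcn) to 0.944 (Pecam1) over 12 libraries, with 5 of them under 0.5 (Emcn, Egfl7, Ly6c1, Cldn5 and Cdh5), and from 0.617 (Emcn) to 0.883 (Pecam1) over the 9. All libraries share the same dissociation and sorting, and depth and multimapping differ among them, so these values describe the libraries only.

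Within the set, the likeness to Ctgf depended on the 3 libraries with many multimapped reads. The rho with Ctgf was 0.846 for Amotl2, 0.818 for Lats2, 0.580 for Yap1, 0.441 for Cyr61, 0.273 for Tead1, 0.035 for Wwtr1 and -0.179 for Ankrd1 over 12 libraries. Over the 9 it was 0.933 for Tead1, 0.700 for Amotl2, 0.683 for Cyr61, 0.661 for Ankrd1, 0.617 for Lats2, 0.600 for Wwtr1 and 0.583 for Yap1. All 7 rho were above 0 over the 9 libraries, and that of Tead1 was the highest. Ranked among all genes by rho over the 9, Tead1 was at 11, against 6284 over 12 libraries. The other members lay between rank 752 (Amotl2) and rank 1650 (Yap1). Asap1, with a rho of 0 over the 9, had rank 7868, so positive values were common outside the set as well. The members were chosen with these libraries in view, and a relation within the set was not tested.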

How the data were processed

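RNA of WGA-labeled TG neurons was sequenced as SMART-seq2 libraries with single reads of 50 bp. Per the labels and the study's methods, the authors aligned reads to mm9 with TopHat2, processed them with SAMtools and counted them with HTSeq (base calls by CASAVA 1.8.2), and deposited whole-number read counts per gene symbol without normalization. The gene annotation and strand setting are not given in the sources used here. The 5 HTSeq rows that name no gene (76.3% to 88.8% of all counts per library) were left out.

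CPM was computed over gene rows, and RPKM and mm9 positions came from GENCODE mouse release M1, which matched 21627 of 22609 symbols. Depth per library was 4592891 to 8922011 reads on genes, so that 3 reads are 0.336 to 0.653 CPM. Groups came from the sample titles. Group differences came from edgeR 4.0.16 under R 4.3.3 (TMM, filterByExpr with a minimum count of 10 and a minimum total of 15, quasi-likelihood test, 12 libraries, 4 groups), with p adjusted over 13835 genes, those on X and Y included. The criterion of the study on RPKM was not applied. Alternatives were limma-voom with sample quality weights (limma 3.58.1), DESeq2 1.42.0 and its size factors in edgeR, no filter, 10 libraries without FN replicate 2 and FT replicate 2, 9 libraries without FT replicate 3 as well, fits of the compared groups alone, a replicate block, and each library left out in turn. A fit in which FT is 1 library assumes that it varies like the other groups.

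The 8 genes and all lists were chosen with earlier results of these data known. From the pathway lists, a gene was named if its adjusted p was under 0.05, otherwise up to 4 per comparison with the largest difference among those with no overlap of groups and a mean of at least 5 CPM. The 5 genes most like Ctgf by Spearman rho were named too. Any other gene is said to be chosen after its values were seen. There were 8 marker lists, of which those for pericytes, myelinating Schwann cells and neutrophils are given under other observations. Promoter windows came from RefSeq (GRCm38.p6) and were used only for their letters. Other calculations used Python 3.11.15 with pandas 2.3.3, numpy 2.4.6 and matplotlib 3.10.9.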

Additional observations from a re-analysis of the deposited data

How the results depend on the processing

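None of the 40 tested pathway genes that are no members passed an adjusted p of 0.05 in any of the 4 comparisons under edgeR with TMM or DESeq2 size factors, without the count filter, in DESeq2, with 10 or 9 libraries or, for the 3 group comparisons, in fits of the compared groups alone (not run for the difference between the tumor effects). The exception was limma-voom with sample quality weights in FN vs MN, with 3 genes. When any 1 of the 12 libraries was left out, the counts ranged from 0 to 0 in each comparison. With the replicate number as a block, 0 genes passed in each comparison. The numbers did not pair the samples, since correlations of deviations between samples of the same number were 0.03, 0.13 and 0.20 for MN and MT, 0.57, 0.20 and -0.36 for FN and FT, and -0.07, -0.01 and 0.10 for MN and FN.

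The 8 genes gave 32 differences with 566 values under alternatives, of which 550 moved by less than the SD between replicates and 16 by more, all of these for Ankrd1 and Tead1. For comparisons with a female group, that SD includes the 3 libraries with many multimapped reads, and a smaller move could still turn the sign. In FT vs FN the sign turned in some alternatives for every gene but Ctgf, for Ankrd1 in the 9 libraries. It also turned in some for Wwtr1 and Lats2 in MT vs MN, and for Amotl2, Yap1 and Lats2 in FN vs MN. For the difference between the tumor effects it turned in some for Ankrd1, Yap1, Tead1 and Lats2. The scaling moved the median of all genes by less than 0.1 on the log2 scale. Depth limits Ankrd1, with 0 to 46 reads per library. Of the immediate early genes and SRF targets named for FN vs MN, Myl9, Acta2, Ier3, Ier2, Junb, Nr4a1 and Zfp36 passed the adjusted threshold in that comparison with limma-voom, and the last 4 of these also over the 9 libraries. The cause was not tested.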

Other observations

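Other members of the CCN family were low. Nov (CCN3) lay between 2.40 and 6.31 CPM and Wisp1 between 0.435 and 6.30 CPM in the 12 libraries, and Wisp2 was too low to test. Of the TEAD genes other than Tead1, Tead2 lay between 0.130 and 5.31 CPM, and Tead3 and Tead4 were too low to test. The log2 fold differences of Nov and Wisp1 were -0.34 and 0.15 in MT vs MN and 0.11 and 0.00 in FT vs FN, and 0 of the 2 passed the adjusted test in edgeR.

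Of the marker lists whose sums are not given above, the 10 markers of pericytes and smooth muscle summed to 106 to 177 CPM in MN, 124 to 264 in MT, 146 to 308 in FN and 126 to 292 in FT. The 7 markers of myelinating Schwann cells summed to 1943 to 1995 CPM in MN, 1497 to 2290 in MT, 1957 to 2255 in FN and 1171 to 3556 in FT. The 6 neutrophil markers summed to 0.562 to 24.6 CPM in MN, 6.16 to 31.5 in MT, 17.1 to 76.2 in FN and 70.6 to 193 in FT.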
